A study of Camelus dromedarius with 4 samples.

Results

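The proteasome genes of the dromedary supraoptic nucleus were examined in winter and in summer. They were taken by name from the season-mean table of the series, as every symbol that begins with PSMA, PSMB, PSMC, PSMD, PSME, PSMF or PSMG followed by a digit. In all, 50 symbols met this rule, 47 of them had a mean in both seasons, and these stand among 16053 symbols with means. PSMB2, PSMB10 and PSMB11 met the rule but were listed without a value in both seasons, so nothing is said of their level. No measured value was used to choose the genes.

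The supraoptic nucleus is the part of the hypothalamus whose magnocellular neurones make vasopressin and oxytocin. RNA-seq of total RNA depleted of ribosomal RNA was made from the supraoptic nuclei of 2 camels in winter and 2 in summer. The donors were adult, age-matched male camels of the Tergui breed, slaughtered at El Oued in winter and at Ouargla in summer, so that season and place of slaughter cannot be told apart. The p-values below measure only the spread between these few samples.

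The proteasome is the protease complex that degrades most short-lived and misfolded proteins of the cell, after they have been tagged with ubiquitin. Its barrel-shaped core, the 20S particle, is built of outer rings of alpha subunits (PSMA genes) and inner rings of beta subunits (PSMB genes), and some of the beta subunits carry the active sites. A 19S particle caps the barrel: ATPases of its base (PSMC genes) unfold the substrate, while non-ATPase subunits (PSMD genes) hold the polyubiquitin chain and cut it off. Cells exposed to interferon exchange the catalytic beta subunits for those of the immunoproteasome, which favours peptides for presentation on MHC class I molecules. In neurones the complex also takes part in the turnover of synaptic proteins and in the disposal of misfolded secretory proteins retrieved from the endoplasmic reticulum.

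The libraries held between 4379162 and 6902037 reads on gene models, 20.7% to 27.8% of the reads counted. Values are given as normalised reads, that is, read counts divided by the size factor of the library. The table of named genes holds only the mean of the normalised reads for each season. Each mean is a sum of 2 whole read counts divided by 2 size factors, and it was solved for those counts. The solution was unique in both seasons for 20 of the 47 proteasome genes and in summer for 44 of them. The deposited means do not say which library is which replicate, so within each season the library with the larger size factor is given first (1.325 and 0.946 in winter, 0.922 and 0.877 in summer). Levels of different genes are not compared, because no transcript length was at hand. In tissue pieces such as these, fewer cells of a type and less RNA per cell cannot be told apart. Oxytocin mRNA was present at a mean of 592 in summer and 621 in winter, and the transcript listed as putative vasopressin at 11822 and 2560.

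Most proteasome genes stood at nearly the same level in both seasons. Of the 47 genes, 44 reached a mean of 10 normalised reads in at least one season, and their log2 ratio of winter to summer had a median of -0.07 and ran from -0.97 to 1.12. The mean was higher in winter for 20 genes and in summer for 24. Over all 13808 symbols past the same filter it was higher in winter for 6378 and in summer for 7429. In 4 of the 44 (9.09%) the season means lay more than 1.5-fold apart, against 22.3% of all 13808 symbols that passed the same filter. The median size of the log2 ratio, regardless of sign, was 0.16 for the proteasome genes and 0.29 for all symbols. Low levels scatter more, and with both means at 50 or above the corresponding values were 0.16 over 38 proteasome genes and 0.23 over 9344 symbols, with 1 proteasome gene and 10.9% of symbols past 1.5-fold. PSMB8 and PSMG1 were the 2 genes past 1.5-fold with the higher mean in winter, as were 10.1% of all symbols, and PSMB9 and PSME2 the 2 with the higher mean in summer, as were 12.2%. PSMB8 alone differed by more than 2-fold, against 7.26% of all symbols (2.72% higher in winter and 4.53% in summer).

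**Figure D1:**
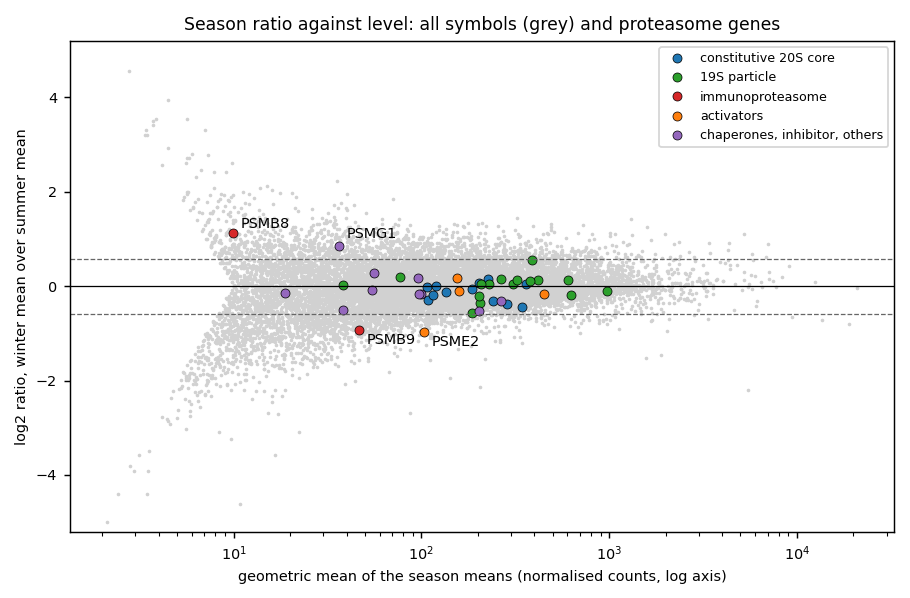
Log2 ratio of the winter to the summer mean (vertical axis) against the geometric mean of both seasons in normalised counts (horizontal log axis), for all symbols that passed the filter (grey) and the 44 proteasome genes (coloured by role); dashed lines mark 1.5-fold and 3 symbols with a season at 0 are not drawn. The proteasome genes lie close to 0 apart from PSMB8 and PSMG1 above the upper line and PSMB9 and PSME2 below the lower one.

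The seasonal differences were mostly smaller than the differences between the 2 summer libraries, as they were over all symbols. Among 40 proteasome genes with counts for both summer libraries, the median size of the log2 gap between these libraries was 0.27, against 0.49 over all symbols. In 2 of the 40 the summer libraries were more than 2-fold apart, against 22.33% of all symbols. The season ratio was smaller than this gap in 26 of the 40, and in 66.3% of all symbols. The winter mean lay between the summer libraries for 14 of 41 genes, below both for 14 and above both for 13, while it lay between them for 46.2% of all symbols. Of the summer libraries, the one of the larger size factor held the higher value in 28 of the 40 genes, with a median log2 gap of 0.18, against -0.07 over all symbols. The same library held less of the neuronal and astrocytic markers, with 314 against 845 normalised reads summed over 4 neuronal genes and 247 against 639 over 4 astrocytic genes, each gene lower there. The part of this in the proteasome values was not tested.

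In the 17 genes that could be tested library by library, no season difference passed multiple testing. With edgeR's quasi-likelihood test and Benjamini-Hochberg adjustment over 7619 symbols, adjusted p-values of the 17 genes ran from 0.981 to 0.997. By the same test 0 of the 7619 symbols passed an adjusted p of 0.05, 152 (2.0%) had an unadjusted p below it, and edgeR's exact test and DESeq2 each passed 1. The calling rule of the study, an unadjusted p under 0.05 with more than 2-fold, took 128 symbols (1.68%) and none of the 17 proteasome genes, of which only PSME2 had an unadjusted p under 0.05. PSME2 no longer did so with TMM, RLE or total-read scaling or with DESeq2. It still did with edgeR's exact test (p of 0.039), with no filter beyond 1 read and with a mean of 30 in a season. Its log2 fold change stayed between -0.98 and -0.91 in all of these. With 2 against 2 samples an exact permutation test of one gene cannot give a two-sided p below 0.333. The winter and summer libraries did not overlap in 6 of the 17 genes (35.3%), against 30.6% of all symbols tested. Both winter values were above both summer values for PSMB8, PSMG1 and PSMC3IP, as for 13.3% of symbols, and both summer values were above for PSMB9, PSME2 and PSMF1, as for 17.2%. Of the 27 genes with several solutions, 18 overlapped under every solution and none was apart under every one.

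**Figure D2:**
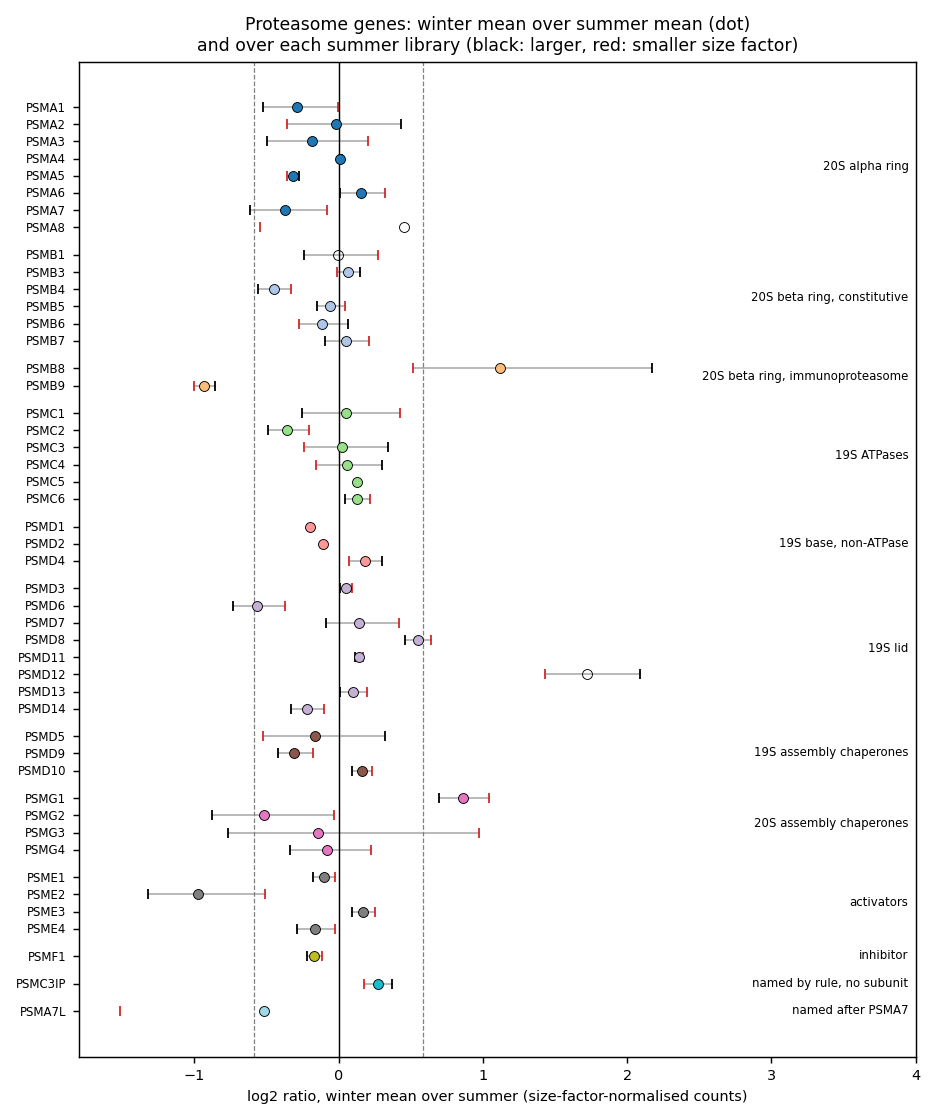
Winter mean relative to the summer mean (dots) and to each summer library alone, as log2 ratios (ticks, black for the larger and red for the smaller size factor), by role of the gene; open dots are genes with means under 10, dashed lines mark 1.5-fold, and a tick is absent where the summer counts were not unique or were 0. Filled dots of the alpha ring and of the 19S particle stay inside the dashed lines, and the ticks of many genes fall on either side of 0.

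The alpha ring forms the gated entrance of the core. Its 7 genes with sufficient reads, PSMA1 to PSMA7, had a median log2 ratio of -0.18, with 5 higher in summer and 2 in winter, and none was past 1.5-fold. PSMA7 gave the widest seasonal difference, with 383 and 264 normalised reads in summer against a winter mean of 251, a log2 ratio of -0.37. PSMA5 had 259 and 275 in summer against a winter mean of 215. The winter mean lay just below the lower summer library for PSMA7, and below 2 closely spaced summer libraries for PSMA5. PSMA1 was counted in all 4 libraries, at 141 and 98.0 in summer and 89.0 and 107 in winter, and its seasons overlapped. PSMA2 also overlapped, at 79.2 and 137 in summer and 95.8 and 117 in winter. In PSMA4 the summer libraries (118 and 120) and the winter mean (120) were almost the same. PSMA6 had a winter mean of 240 beside summer values of 239 and 193. PSMA8, the alpha subunit known from the testis, had 0 and 3 summer reads and 2 and 3 winter reads, at the floor of 3 reads, and no fold is given.

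Constitutive beta subunits were as even. PSMB5, PSMB6 and PSMB7 carry the chymotrypsin-like, caspase-like and trypsin-like active sites. PSMB5 stood at 204 and 178 in summer and 234 and 133 in winter, so that the winter values enclosed the summer ones. For PSMB6 the summer libraries gave 124 and 156 and the winter libraries 138 and 121, also overlapping. PSMB7 had a summer mean of 353 and a winter mean of 365. The log2 ratios of the 3 catalytic genes were thus -0.06, -0.11 and 0.05. Among the structural subunits, PSMB3 gave 198 in summer and 207 in winter. PSMB4 had the widest difference of the constitutive core, 431 and 367 in summer against a winter mean of 292, a log2 ratio of -0.45. The counts of PSMB4 behind the winter mean had more than one solution. PSMB1 was listed at a handful of reads, with 6 and 4 from the summer samples and 9 and 4 from the winter samples, and its season means were 5.53 and 5.51. A ratio of winter to summer reads, summed over both libraries and scaled by the size factors, was 1.03 for PSMB1, with an exact 95% counting interval of 0.417 to 2.63 that covers counting error only and takes in both directions. Across the constitutive core, 12 genes with sufficient reads, the median log2 ratio was -0.08, with 8 higher in summer, 4 in winter and none past 1.5-fold.

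Among the 44 genes past the filter, the immunoproteasome genes PSMB8 and PSMB9 and the activator gene PSME2 had the season ratios furthest from even, PSMB8 towards winter and the others towards summer. PSMB9, which takes the place of PSMB6, had 60.7 and 67.3 normalised reads in summer (56 and 59 reads) and 33.2 and 33.8 in winter (44 and 32 reads). The samples of each season were close together and the seasons were apart. Its log2 fold change was -0.93 ± 0.43 (SE), with an adjusted p of 0.981 by edgeR's quasi-likelihood test. PSMB8, which takes the place of PSMB5, went the other way, at 3.25 and 10.3 in summer and 16.6 and 12.7 in winter. These values rest on 3, 9, 22 and 12 reads. The ratio of summed and scaled reads, winter to summer, was 2.25 for PSMB8 with a counting interval of 1.13 to 4.76, and edgeR's quasi-likelihood test gave a log2 fold change of 1.14 ± 0.89 with an adjusted p of 0.981. This size rested on the summer libraries, as it was 2.15 without the one of the smaller size factor and 0.52 without the one of the larger. PSMB10, the third immunoproteasome subunit, and PSMB11, the thymic one, were without values. In the RefSeq annotation of the dromedary (assembly mCamDro1.pat), PSMB8 lies between TAP2 and TAP1, and PSMB9 lies next to TAP1.

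PSME1 and PSME2 encode the interferon-responsive activator PA28, a ring that opens the gate of the core without ubiquitin. PSME2 had 184 and 105 normalised reads in summer (170 and 92 reads) and 86.0 and 61.3 in winter (114 and 58 reads). Both summer values lay above both winter values, but the summer libraries were further from each other than the lower of them was from the winter samples. The log2 fold change was -0.96 ± 0.41 (SE), with an adjusted p of 0.981 by edgeR's quasi-likelihood test. The size of this difference rested on 1 library. Without the summer library of the smaller size factor the log2 fold change was -1.32 and PSME2 met the calling rule of the study, and without the one of the larger size factor it was -0.50 and PSME2 did not. PSME1, its partner in the ring, did not share the difference in size, with 174 and 156 in summer against a winter mean of 154, a log2 ratio of -0.10. The difference between the partners was not tested, because the winter counts of PSME1 had 2 solutions.

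The other activators were flat. PSME3, which forms the nuclear form of the ring, had 154 and 138 in summer and a winter mean of 164. PSME4, the large activator PA200 of the nucleus, had 519 and 434 in summer and a winter mean of 426. The inhibitor PSMF1 stood at 106 and 99.2 in summer and 84.5 and 98.4 in winter. The last values are apart by less than 1 normalised read, and with 3 other scalings of the libraries PSMF1 overlapped between the seasons while PSMD4 no longer did.

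**Figure D3:**
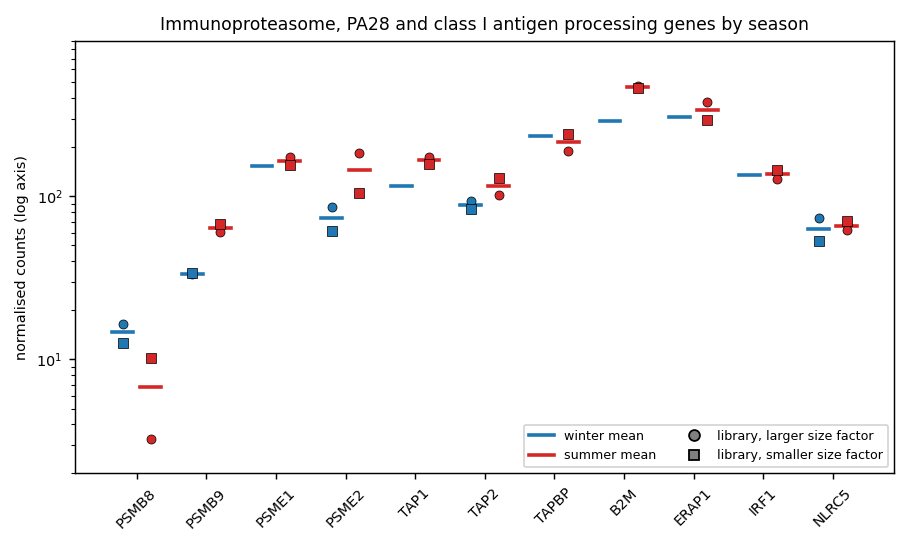
Normalised counts (log axis) of the immunoproteasome genes PSMB8 and PSMB9, the PA28 genes PSME1 and PSME2 and 7 genes of class I antigen processing, by season; bars are season means, and symbols are libraries, drawn for a season only where the counts had a single solution. PSMB9 and PSME2 are lower in winter in both libraries, PSMB8 is higher in winter at few reads, and PSME1 is nearly level.

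Genes of class I antigen processing were read beside these, from a fixed list of 8, all with means. Their median log2 ratio was -0.14, with 7 higher in summer and 1 (TAPBP, the peptide editor tapasin, 0.12) in winter. Over all 13808 symbols 7429 were higher in summer. Past 1.5-fold was 1 gene, against 22.3% of all symbols and 10.9% of those with both means at 50 or above. That gene was B2M, the light chain of class I molecules, with 474 and 460 in summer and a winter mean of 290, a log2 ratio of -0.69. TAP1 and TAP2 form the transporter that carries proteasomal peptides into the endoplasmic reticulum. TAP1 had 175 and 158 in summer against a winter mean of 115, and TAP2 had 102 and 129 in summer against 93.6 and 83.5 in winter. The seasons were apart for TAP2, under 1 of 2 solutions for TAP1 and under 2 of 3 for B2M, and the other 5 genes overlapped under every solution. Among all symbols tested library by library 30.6% were apart, 17.2% with summer above. For TAP2 edgeR's quasi-likelihood test gave an adjusted p of 0.981. The interferon-related regulators NLRC5 and IRF1 had log2 ratios of -0.06 and -0.02.

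Markers of several cell types differed between the seasons beside PSMB9 and PSME2. All 5 neuronal genes with sufficient reads were higher in winter, with a median log2 ratio of 0.76 and 3 past 1.5-fold. In the 4 of them with unique summer counts, the summer library of the larger size factor was below the other. TUBB3 had 183 and 496 in summer against a winter mean of 492, and SNAP25 had 79.2 and 199 against 237. SYT1 had 36.9 and 116 against 137, and RBFOX3 had 15.2 and 33.1 against 45.3. Of 6 astrocytic genes 3 were lower in winter past 1.5-fold, GFAP among them at means of 25074 and 14423, and the other 3 were higher. Of 6 oligodendrocytic genes 5 were higher in winter, 2 of them past 1.5-fold, and 1 in summer. Endothelial genes were divided, with 2 higher in winter, 1 of them past 1.5-fold, and 3 in summer. Over all symbols, 10.1% were higher in winter past 1.5-fold and 12.2% higher in summer. Of 7 microglial and macrophage genes with sufficient reads, 5 were lower in winter and 2 higher, and their summed means were 3823 in summer and 3480 in winter. CSF1R, the only one past 1.5-fold, was among the higher, at means of 56.2 in summer and 106 in winter. CD68 was listed at 0 in summer and C1QA was without a mean. AIF1, a microglial gene, had 147 and 86.6 in the summer libraries, and the microglial genes with unique summer counts summed to 371 and 196 there, the order in which PSME2 stood. In winter the order was the opposite of that of PSME2 for AIF1 (89.0 and 136), PTPRC (92.8 and 117) and the sum (304 and 348). CSF1R, in the same sum, had the order of PSME2 in winter, at 120 and 92.0. The lymphocyte genes summed to 68.3 and 107 in the summer libraries, against the order of PSME2. The lymphocyte genes CD3E and CD2 were both lower in winter past 1.5-fold, CD3E at a mean of 65.6 in summer and 35.6 in winter. Whether cells of any of these kinds had a part in the values of PSMB9 and PSME2 was not tested.

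**Figure D4:**
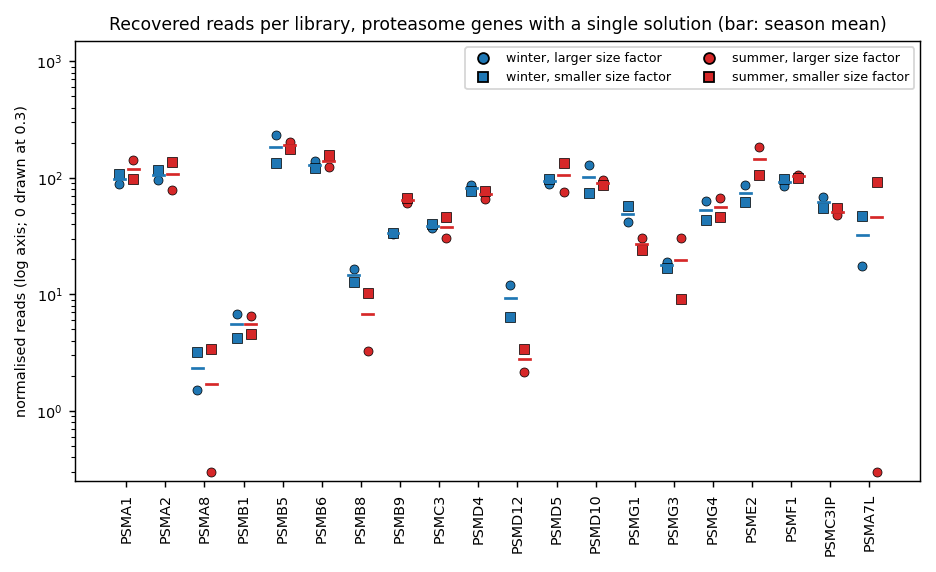
Normalised reads (log axis, 0 drawn at 0.3) in each library for the 20 proteasome genes whose counts had a single solution in both seasons; blue is winter, red is summer, circles and squares are the larger and smaller size factor, and bars are season means. The seasons overlap for most genes, PSMB8, PSMB9, PSMD12, PSME2 and PSMG1 stand apart, PSMC3IP and PSMF1 are apart by less than 1 normalised read, and PSMA7L was at 0 in one summer library.

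The 19S particle had a median log2 ratio of 0.05 over its 16 genes with sufficient reads, 11 higher in winter and 5 in summer, and none was past 1.5-fold. Of its 6 ATPases, PSMC1 to PSMC6, 5 had the higher mean in winter, and their median was 0.05. PSMC5 had season means of 580 in summer and 633 in winter, and PSMC4 of 226 and 235. PSMC3 was counted in all libraries, at 30.4 and 45.6 in summer and 37.0 and 40.2 in winter. The winter values of PSMC3 lay inside the summer ones. PSMC2 was the exception of the group, with 254 and 209 in summer and a winter mean of 181, a log2 ratio of -0.36. PSMC3IP carries a similar symbol but is a cofactor of meiotic recombination and no subunit. It stood at 47.7 and 54.7 in summer and 68.7 and 55.0 in winter, with a log2 fold change of 0.28 ± 0.41 (SE).

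The non-ATPase subunits of the base differed little. PSMD1 and PSMD2, the large scaffolds that receive shuttle factors, had means of 671 and 1008 in summer and 586 and 934 in winter. PSMD4, a receptor of polyubiquitin, had 66.1 and 77.5 in summer and 86.0 and 77.2 in winter. The winter and summer values of PSMD4 thus met at the lower winter library. In the lid, the part that carries the deubiquitinase, 5 of 7 genes were higher in winter. PSMD14 is the deubiquitinase itself, and it had 234 and 201 in summer and a winter mean of 187, a log2 ratio of -0.22. PSMD8 and PSMD6 gave the outer values of the lid. PSMD8 had 343 and 303 in summer against a winter mean of 472, a log2 ratio of 0.55, but every solution of the winter counts put one winter library below the higher summer value. PSMD6 had 253 and 197 in summer against a winter mean of 152, a log2 ratio of -0.56, and 1 of 3 solutions put both winter libraries below both summer libraries. PSMD12, under the filter, had 2 and 3 summer reads and 16 and 6 winter reads, a ratio of summed and scaled reads of 3.49 with a counting interval of 1.29 to 11.8.

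The 4 chaperones that build the 20S core had log2 ratios from -0.52 to 0.86, and 1 of them was past 1.5-fold, a share near the 22.3% of all symbols. PSMG1 and PSMG2 act as a pair in assembling the alpha ring. PSMG1 had 30.4 and 23.9 in summer (28 and 21 reads) and 41.5 and 57.1 in winter (55 and 54 reads). Both winter values of PSMG1 lay above both summer values. Its log2 fold change was 0.84 ± 0.51 (SE), with an adjusted p of 0.981 by edgeR's quasi-likelihood test, and the ratio of summed and scaled reads was 1.76 with a counting interval of 1.247 to 2.52. PSMG2 had a log2 ratio of the other sign, -0.52, from 312 and 173 in summer to a winter mean of 170. The summer values of PSMG2 were further apart than the season means. PSMG3 and PSMG4 form the other pair. PSMG3 had 30.4 and 9.12 in summer and 18.9 and 16.9 in winter, and PSMG4 had 67.2 and 45.6 in summer and 63.4 and 43.4 in winter. In each, the winter values did not leave the range of the summer ones except for the lower value of PSMG4. The chaperones of the 19S base, PSMD5, PSMD9 and PSMD10, had log2 ratios of -0.16, -0.31 and 0.16. PSMD5 and PSMD10 overlapped between the seasons, with PSMD10 at 95.4 and 86.6 in summer and 130 and 74.0 in winter.

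Outside the PSM symbols, the machinery around the proteasome was as flat. A list of 50 genes in 6 groups gave 41 with means, of which 4 (9.76%) were past 1.5-fold, 3 higher in winter and 1 in summer, beside the 22.3% of all symbols. Most of the 41 had both means at 50 or above, and 10.9% of all symbols at that level were past 1.5-fold, a share near theirs. Of these genes 8 could be tested by edgeR's quasi-likelihood test, none below an unadjusted p of 0.05, with a lowest adjusted p of 0.981. Partners of the complex outside the name rule, 9 with means, had a median log2 ratio of -0.07 and none past 1.5-fold. POMP, the maturation factor of the core, had means of 99.6 in summer and 93.9 in winter, and ADRM1, a ubiquitin receptor, of 256 and 244. USP14, a deubiquitinase bound to the cap, was the one partner with a higher winter mean (292 in summer, 327 in winter), and PAAF1, a chaperone of the base, had the largest difference to the other side (423 and 338).

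Transcription factors of the NFE2L family drive proteasome genes when proteolysis is short. The season means of NFE2L1 were 233 in summer and 326 in winter (log2 ratio 0.48), while those of NFE2L2 were 452 and 352 (log2 ratio -0.36). The list of 4 regulators held none past 1.5-fold. Nor did the 3 genes of ubiquitin and its activation with means, of which RPS27A, a ubiquitin precursor, had a log2 ratio of -0.30 and UBA1, the main activating enzyme, of 0.46. Among the shuttle factors and the segregase VCP with its cofactors, UFD1L, a cofactor, had a log2 ratio of 0.32 and VCP of -0.19. Endoplasmic reticulum-associated degradation feeds misfolded secretory proteins to the proteasome, and 2 of its 8 genes were past 1.5-fold, both higher in winter, a share near the 22.3% of all symbols. These were DERL1, a component of the retrotranslocation channel, at 13.4 in summer and 29.4 in winter, and DERL2, with a log2 ratio of 0.85. The stress-induced HERPUD1 had a ratio of -0.27 on the same scale. Libraries of these pathway genes, other than the 8 that were tested, could not be read uniquely in both seasons, and their differences have no replicate check.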

How the data were processed

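Supraoptic nucleus RNA-seq libraries (2 winter, 2 summer) were sequenced paired-end. Per the labels and the study's methods, reads were aligned with TopHat to the authors' own dromedary assembly and counted with HTSeq, and DESeq and edgeR are named for later steps (versions not given in the sources used here). The deposited count files hold raw read counts for 64989 gene models without gene names and gave only the depth. The paper puts its high number of gene predictions down partly to fragmentation or duplication in the draft assembly. Whether the reads of a symbol, such as PSMB1, PSMB8 or PSMD12, cover a whole gene was not tested. The deposited season means per symbol (unit signal) are counts divided by size factors, averaged over 2 libraries by the authors. Columns of the authors' fold changes and p-values were not used.

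The steps of low means gave the size factors, and each mean was solved for whole reads: 100% of means had a solution, 9860 symbols a single one in both seasons. These were tested with edgeR 4.0.16 (R 4.3.3; quasi-likelihood, size factors of the steps, Benjamini-Hochberg) after a filter of a mean of 10 in a season. DESeq2 1.42.0, the exact test, other scalings, filters and folds, and leaving out each library were tried as alternatives, and scripts were tested on simulated data. The use of recovered reads follows from the unit of the means. Counting intervals are exact 95% intervals on the reads of both libraries. Left out were 4 rows that share 2 date-like names. Every gene meeting the name rule was accounted for by role, with library values where unique, and for each pathway list those with the largest ratio each way, apart from 3 genes counted in their lists but not reported here by name. Members, gene lists and tests were chosen with earlier results of these data known. Strand-specific libraries were made, and the strand setting of the counting is not given in the sources used here.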

Additional observations from a re-analysis of the deposited data

How the results depend on the processing

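No paired analysis was possible because the tissue was taken at slaughter, so that no camel was sampled in both seasons. The median log2 ratio of all 47 proteasome genes with means was -0.02, and it ran from -0.093 to 0.0011 when the winter mean was set against one summer library. The 4 of 44 genes past 1.5-fold became 11 at a lower threshold (0.32 on the log2 scale), which 6322 of all 13808 symbols passed. They became 1 at 2-fold, against 7.26% of symbols, and 1 of 38 with both means at 50 or above. Against a single summer library they were 5 to 9 of 41, and the share over all symbols was not computed for that setting. For all symbols the share past 1.5-fold was 11.7% with a mean of 100 in a season and 10.9% with both at 50. The count of 128 symbols past the study's rule was 70 with a mean of 30, 67 among the low-mean symbols, 60 with DESeq2, and 33 to 1155 when a library was left out (1098 without the summer library of the larger size factor and 1155 without the smaller). The 17 proteasome genes gave 0 past the rule in every alternative except 0 to 2 when a library was left out. These were PSMA7L without the summer library of the larger size factor, and PSME2 and PSMA7L without the smaller. The cause was not tested.

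PSMA2 changed sign under TMM (0.028), RLE (0.042) and total reads (0.105), and PSMB5 under total reads (0.023). Leaving out one library turned the sign of 9 genes. The log2 fold changes then ran from -0.36 to 0.43 for PSMA2, -0.52 to 0.29 for PSMB5, -0.27 to 0.066 for PSMB6, -0.24 to 0.34 for PSMC3, -0.30 to 0.51 for PSMD10, -0.52 to 0.32 for PSMD5, -0.75 to 0.97 for PSMG3, -0.38 to 0.23 for PSMG4 and -1.54 to 8.06 for PSMA7L, where 8.06 is fitted against 0 reads and is no bound. A season left with 1 library is assumed to vary like the other. In 8 of the 17 genes the sign held under every alternative, PSMB9, PSMB8, PSMG1 and PSME2 among them. The libraries of these named genes did not overlap between the seasons, so leaving out 1 library could not turn their sign. With 2 libraries a season the biological coefficient of variation was 0.46.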

Other observations

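PSMA7L, a symbol listed beside PSMA7 whose relation to it the files do not give, was counted 0 and 80 times in the summer libraries, in the order used above, and 23 and 44 times in the winter libraries. It was singled out after its values were seen. Normalised, the summer values were 0 and 91.2, while PSMA7 had 383 and 264, in the opposite order. Summed over both symbols the summer libraries held 383 and 356, and the summed season means of 369 (summer) and 283 (winter) gave a log2 ratio of -0.39. Whether the symbols share reads was not tested, and each is uncertain on its own. A value of 0 in one summer library with at least 30 normalised reads in the other was found for 130 of 12129 symbols (1.07%).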
